A study of Mus musculus with 45 samples.

Results

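The genes described here are 41 genes of DNA replication and mitosis, taken from a list by gene symbol, out of 54838 genes in the count table. They comprise 13 genes of replication licensing and the replication fork, 8 cyclins and kinases of G1 and S phase, 4 transcription factors, and 16 mitotic cyclins, kinases and spindle genes. Their RNA was measured in 15 mouse cell lines that carry polyomavirus middle T antigen (*PyMT*+), an oncogene that the MMTV promoter drives in the mammary epithelium of FVB/N mice. The lines descend from the primary mammary tumour lines YEJG and YEJH, which are also called parental here. From YEJG came 1 line from a fat pad tumour (YEJG-FP) and 2 lines from whole lung (YEJG-M1 and YEJG-M2). From YEJH came 5 fat pad tumour lines (YEJH-FP1 to YEJH-FP5) and 5 lung lines (YEJH-M1 to YEJH-M5), of which YEJH-M3 is labelled as lung metastases and the other 4 as whole lung. All of the lines carry the oncogene, no treatment is labelled, and each origin is a single parental line, so the spread between derived lines of an origin does not describe other tumours. Every line was sequenced in 3 libraries, which the study calls technical repeats, and the line was taken as the unit of each comparison between lines.

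Proliferating cells license their replication origins by loading the MCM helicase in G1, fire them in S phase, and then segregate the duplicated chromosomes in mitosis. E2F transcription factors switch on the replication genes once cyclin D and cyclin E kinases have inactivated the retinoblastoma protein, and the mitotic genes follow later, through the DREAM and B-MYB complexes and FOXM1. Cyclin D1 is a well-known driver of mammary tumours, and MKI67, TOP2A and AURKA are familiar markers of how rapidly breast tumours proliferate. All of the lines were growing cultures lysed near confluence, so a level of these genes describes cycling cells in a dish. In bulk RNA a smaller share of cycling cells and less RNA per cycling cell cannot be told apart.

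Between 9723860 and 16943900 reads fell on genes in a library, with a median of 13944899. The library of YEJH-M3 repeat 2 stood apart, with 56.7% of its reads on genes against 64.01% to 68.36% in the other 44 libraries. The library names carry either of 2 prefixes, called run A (22 libraries) and run B (23 libraries) here, and each line has libraries of both. The submitters' name for the library of YEJG-M1 repeat 1 is that of a YEJH line, and the sample title was followed here. The defining genes of lung epithelium were at or near 0, with *Sftpc* and *Sftpb* at 0 reads in every line and a summed level of at most 6.12 normalised counts. The summed endothelial markers reached 10.6 and the summed leukocyte markers 27.6 to 94.1, with *Itgam* and *Cd3e* at 0. Mammary epithelial keratins, *Epcam* and *Cdh1* were present in every line, at a summed level of 38176 or more.

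Of the 41 genes, 40 were expressed at a level that allowed a test, and the remaining one, *Ccnd2*, was not. Levels are given as normalised counts, which are reads scaled to a common library size, as the mean of the 3 libraries of a line. To compare genes with each other, the mean over the 15 lines was divided by the length of the gene's exons in kilobases. That length joins all annotated exons of a gene and not those of 1 transcript, so ranks per kb depend on the annotation. On that scale the D-type cyclins spanned the whole range, with *Ccnd1* highest of the 41 genes at 6359 normalised counts per kb, *Ccnd3* at 117 and *Ccnd2* at 3 reads in all 45 libraries together. Next after *Ccnd1* came *Pcna*, the sliding clamp of the replication fork, at 1680 per kb, *Cdk4*, the kinase partner of the D-type cyclins, at 1569 per kb, and *Cdc20*, an activator of the anaphase-promoting complex, at 1507 per kb. *Top2a*, the topoisomerase that untangles sister chromatids, stood at 1373 per kb, *Birc5*, which encodes survivin, at 1146 per kb, and the proliferation marker *Mki67* at 761 per kb. The subunits of the MCM2-7 helicase ring, which are needed in equal amounts, lay between 535 per kb for *Mcm2* and 870 per kb for *Mcm6*. The lowest of the tested genes on this scale were *E2f2* at 53.0 per kb, *Gins2*, a subunit of the GINS complex of the fork, at 92.8 per kb, and *Vrk1*, a chromatin kinase, at 100.3 per kb. By normalised count *Vrk1*, at 982, was above *Gins1* at 337 and *E2f1* at 455.

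**Figure D1:**
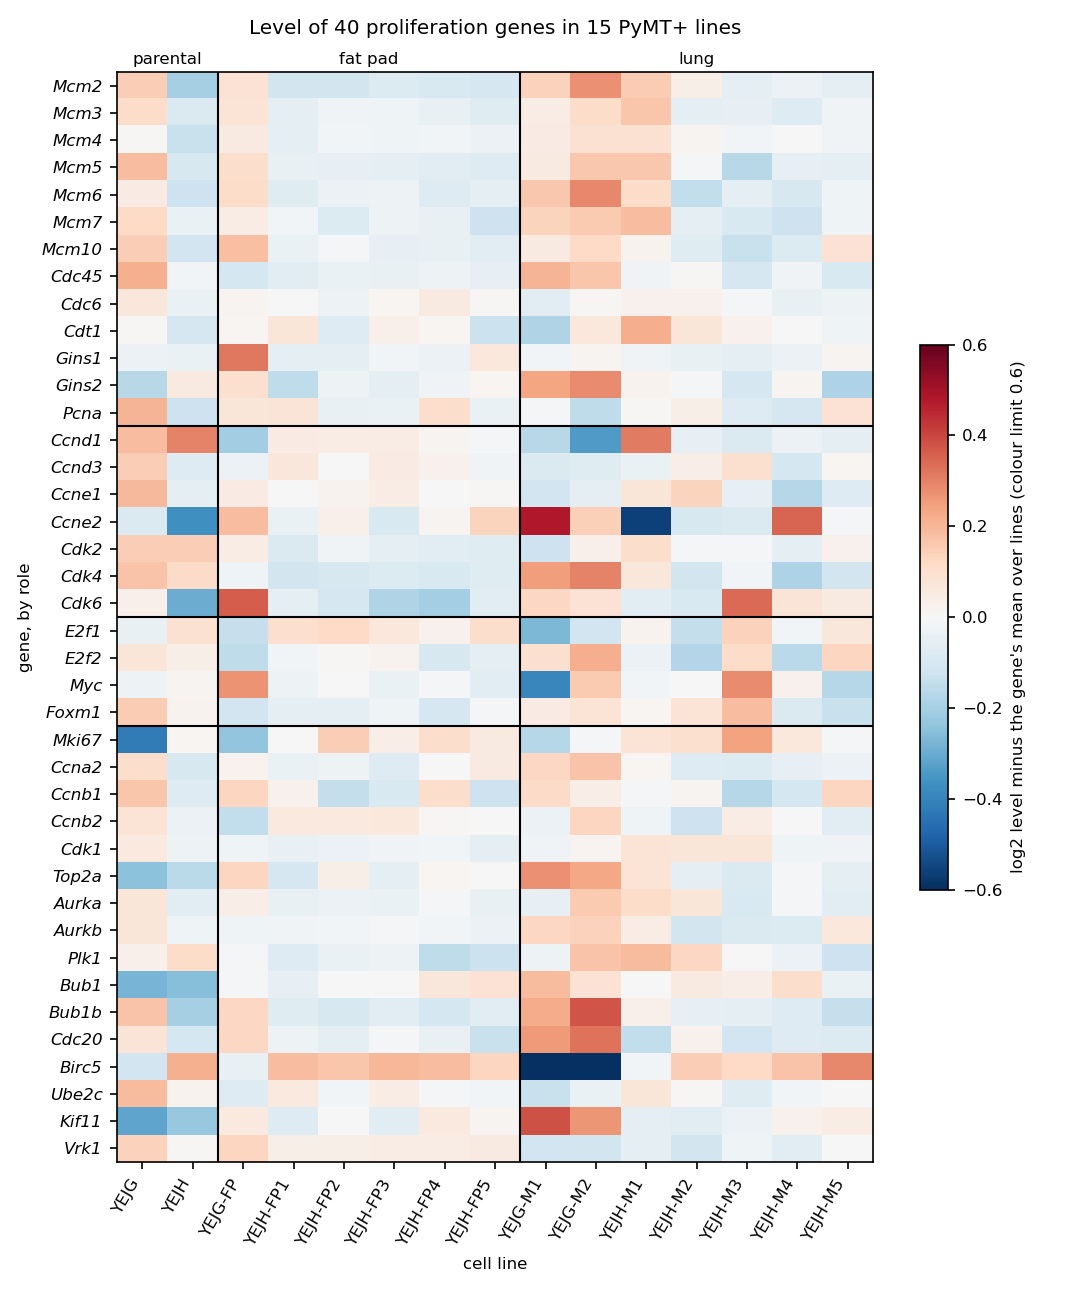
Each row is one of the 40 tested genes, ordered by role, and each column one of the 15 cell lines. The colour is the log2 difference of the line's mean normalised count from the gene's mean over the lines. *Birc5* is lowest in YEJG-M1 and YEJG-M2, *Mcm2*, *Mcm5* and *Mcm6* are high in the YEJG lines and in YEJH-M1, and the 5 YEJH fat pad lines look alike; *Ccnb1* and *Pcna* also follow the run prefix.

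Lines grown out of the lung were compared with lines from fat pad tumours. None of the 40 genes differed between the 7 lung and the 6 fat pad lines at an adjusted p under 0.05, and the same test, edgeR's quasi-likelihood test, called 0 of 15056 genes (0%). At an unadjusted p under 0.05 there were 2 of the 40 genes and 784 of all genes. DESeq2 called 22 genes, of which *Vrk1* was the only one of the 40. The log2 differences of the 40 genes, lung minus fat pad, ran from -0.21 to 0.13 with a median of 0.04, beside a median of 0.01 over all genes tested. The 95% confidence interval lay within a 1.5-fold change in either direction for all 40 genes and within a 1.25-fold change for 39, with *Birc5* the exception.

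*Vrk1*, which encodes a kinase that phosphorylates histone H3 and the chromatin protein BAF, had the smallest p. Its levels in the fat pad lines ran from 1004 to 1071 with a median of 1011. In the lung lines they ran from 906 to 982 with a median of 938. The 2 groups of lines did not overlap, which was so for 1 of the 40 genes and for 0.259% of all genes tested. The parental lines stood at 1078 (YEJG) and 986 (YEJH). The log2 difference was -0.13 ± 0.03 (SE), with an adjusted p of 0.909 in edgeR and 0.00872 in DESeq2, and over the other alternatives the adjusted p lay between 0.217 and 0.999. The difference was -0.07 in run A libraries alone and -0.16 in run B libraries alone.

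*Mcm2*, a subunit of the helicase ring, and *Plk1*, a kinase of mitotic entry, followed in order of p. *Mcm2* ranged from 3913 to 4483 in the fat pad lines and from 4061 to 5099 in the lung lines. Its log2 difference was 0.13 ± 0.06 with an adjusted p of 0.909 in edgeR's test. *Plk1* ranged from 1383 to 1526 in the fat pad lines and from 1409 to 1749 in the lung lines, with a log2 difference of 0.11 ± 0.05 and an adjusted p of 0.909. Both genes overlapped between the groups. None of the lists of related genes held a call in this comparison either: 0 of 34 other replication genes, 0 of 46 other mitosis genes, 0 of 15 partners of E2F and DREAM, 0 of 12 cell cycle brakes and 0 of 8 genes of the Myc network.

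**Figure D2:**
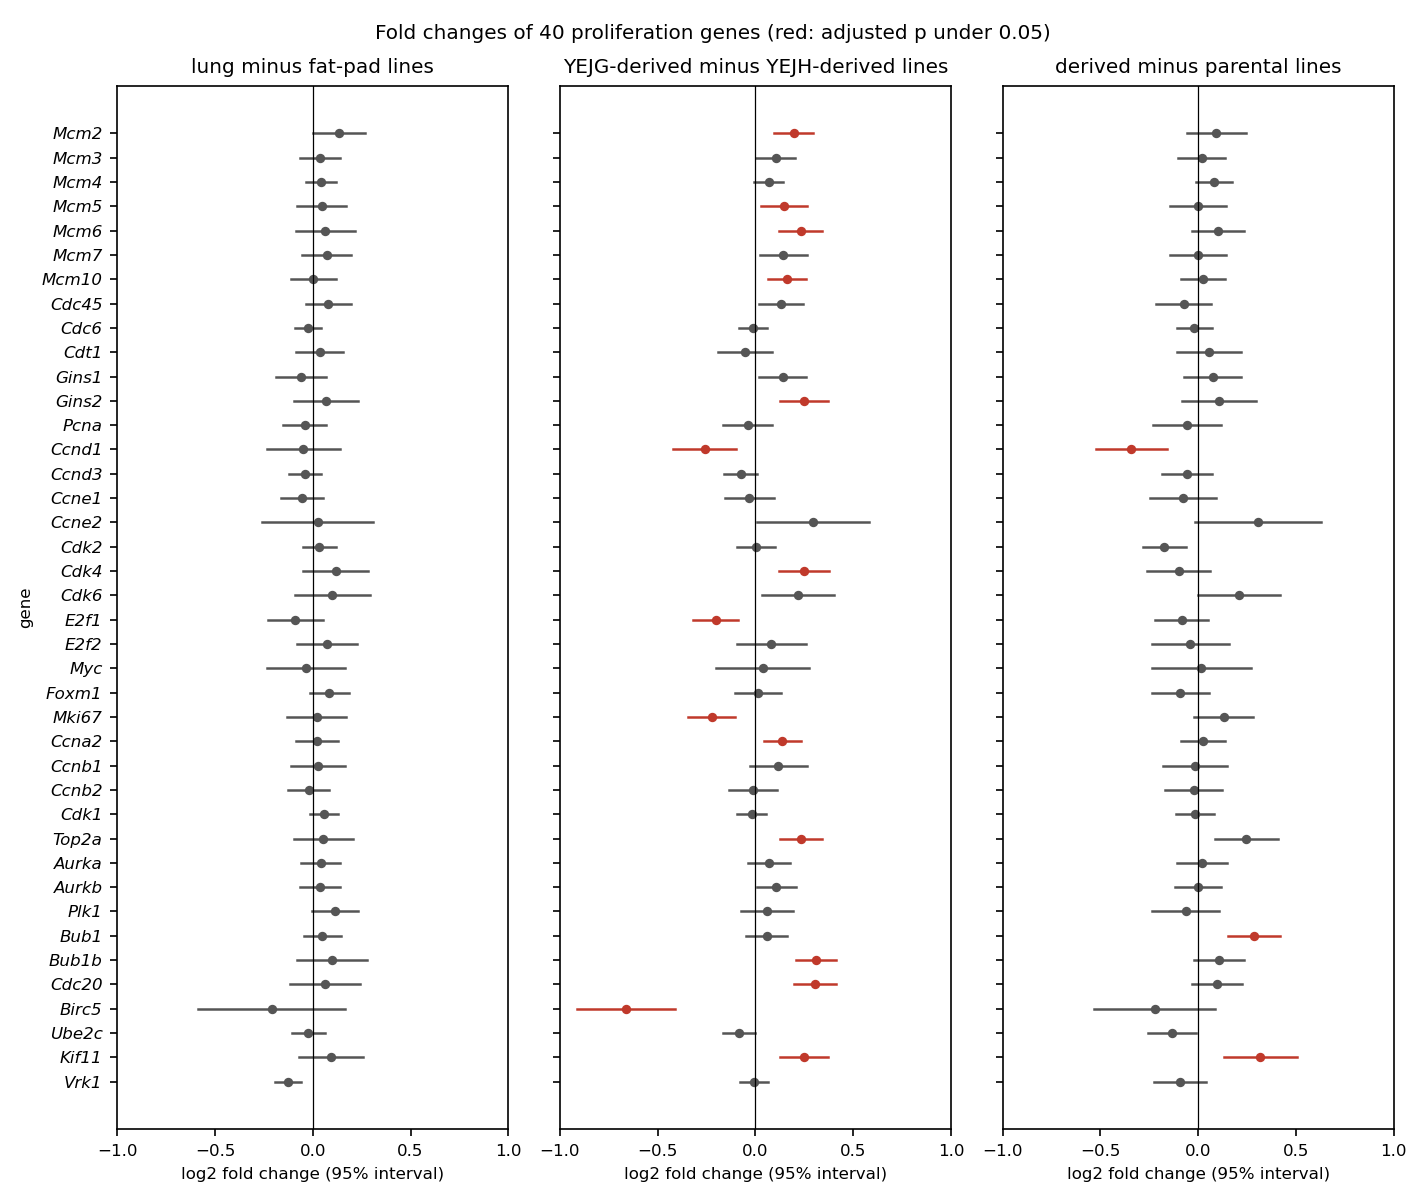
Points are log2 fold changes from edgeR for the 40 tested genes and bars are 95% confidence intervals, for lung minus fat pad lines, YEJG-derived minus YEJH-derived lines, and derived minus parental lines. Red points have an adjusted p under 0.05: 0 genes by site, 15 by origin and 3 by passage.

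The origin of a line went with larger differences. Comparing the 3 lines derived from YEJG with the 10 derived from YEJH, with the site as a covariate, 15 of the 40 genes differed, where 42.3% of all genes did. Of the 40 genes, 11 were higher in the YEJG-derived lines, where 20.9% of all genes were, and 4 were lower, where 21.4% were. The share called in either direction is near that of all genes and so is not a result about these genes, and the split by direction was not tested against that of all genes. The difference in *Birc5* was the largest among the 15, at 0.632-fold in the YEJG-derived lines, and the other 14 lay between 0.835-fold and 1.24-fold.

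Among the 13 replication genes 5 were higher in the YEJG-derived lines, where 20.9% of all genes were. None was lower, where 21.4% of all genes were, and the split by direction was not tested. *Mcm6* stood at 5081 in YEJG-FP, 5272 in YEJG-M1 and 5758 in YEJG-M2, and at 4253, 4531 and 5088 as the lowest, median and highest of the YEJH-derived lines. The ranges met at YEJG-FP and YEJH-M1, and the log2 difference was 0.23 ± 0.05 with an adjusted p of 0.00308 in edgeR's test. *Mcm2* stood at 4483, 4638 and 5099 in the same 3 lines of YEJG, and at 3913, 4025 and 4694 in the lines of YEJH, of which only YEJH-M1 reached into the YEJG range. Its log2 difference was 0.19 ± 0.05 with an adjusted p of 0.00473. *Gins2* was measured at 405, 446 and 462 in the YEJG-derived lines, all above the YEJH-derived lines at 333 to 385 with a median of 372. The log2 difference of *Gins2* was 0.25 ± 0.06 with an adjusted p of 0.00376.

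*Mcm10*, a factor that helps to activate the loaded helicase, was at 1349, 1235 and 1291 in YEJG-FP, YEJG-M1 and YEJG-M2 and at 1085 to 1262 in the YEJH-derived lines, with a median of 1151. Only YEJH-M5 lay inside the YEJG range. The log2 difference was 0.16 ± 0.04 with an adjusted p of 0.0107 in edgeR's test. The fifth, *Mcm5*, was the weakest of the calls, at 0.15 ± 0.05 with an adjusted p of 0.0423, and it passed the threshold in 15 of 30 alternatives. Of the 34 other replication genes 15 were called, where 42.3% of all genes were. All 15 were higher in the YEJG-derived lines, where 20.9% of all genes were, and this direction was not tested. Among them were the clamp loader subunit *Rfc5* (log2 difference 0.31), *Timeless*, which protects forks (0.24), and the origin recognition subunit *Orc3* (0.73). This list was written with earlier results of these data known.

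Of the 7 tested G1 and S genes 1 was higher and 1 was lower, where 20.9% and 21.4% of all genes were. *Cdk4* stood at 5269 in YEJG-FP, 6383 in YEJG-M1 and 6608 in YEJG-M2, against 4724 to 5632 with a median of 5033 in the YEJH-derived lines. The lung lines of YEJG lay above every line of YEJH and YEJG-FP lay among them, and the log2 difference was 0.25 ± 0.06 with an adjusted p of 0.00425 in edgeR's test. Its partner *Ccnd1* went the other way, at -0.26 ± 0.08 with an adjusted p of 0.0141. It stood at 26116, 26880 and 23838 in the YEJG-derived lines, all below the YEJH-derived range of 28453 to 37530. Reads of *Cdk4* cannot be told from those of *Tspan31* where these genes overlap on opposite strands, since the library kit named for these lines does not keep the strand. The same holds for the overlaps of *Ccnd1* with *LTO1*, *Cdc20* with *Elovl1*, *Gins2* with *Gse1*, *Ccna2* with *Exosc9* and, for a gene named further below, *Cdc45* with *Ufd1*. Each library also has a separate tally of ambiguous reads, which is outside the counts of genes. How many of those reads came from these overlaps is not known.

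Of the 4 transcription factors only *E2f1* differed. It was measured at 412 in YEJG-FP, 377 in YEJG-M1 and 419 in YEJG-M2, against 410 to 499 with a median of 475 in the YEJH-derived lines. YEJH-M2 was the only YEJH-derived line that low, and the log2 difference was -0.20 ± 0.05 with an adjusted p of 0.00847 in edgeR's test. Among 15 partners of E2F and DREAM 3 were higher and 2 lower, including the dimerisation partner *Tfdp1* at 0.15, *E2f4* at 0.14 and the DREAM subunit *Lin9* at -0.21. Of 12 cell cycle brakes 3 were higher and 4 lower. Beside the counts in this paragraph, 42.3% of all genes were called in either direction. The brakes with the smallest p were the inhibitor of cyclin-dependent kinases *Cdkn1a*, which encodes p21, at -0.91, *Cdkn2c*, an inhibitor of CDK4 and CDK6, at 0.66, and the p53 target *Ccng1* at -0.49. In the Myc network 3 of 8 genes were higher and 3 lower, with the Max partners *Mxd1* at -1.28 and *Mxd3* at 0.78 and *Max* itself at 0.33, while *Myc* was not called.

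Of the 16 mitotic genes 5 were higher and 2 were lower in the YEJG-derived lines, where 20.9% and 21.4% of all genes were. *Bub1b* (chr2:118428684-118472076 on GRCm39, plus strand), which encodes the checkpoint protein BUBR1, stood at 2407 in YEJG-FP, 2577 in YEJG-M1 and 2872 in YEJG-M2. The YEJH-derived lines ran from 2010 to 2255 with a median of 2106, below all 3. The parental lines were ordered the same way, at 2488 for YEJG and 1927 for YEJH. The log2 difference was 0.31 ± 0.05 with an adjusted p of 0.000252 in edgeR's test. *Cdc20* (chr4:118290098-118294610, minus strand), whose protein is held in check by BUBR1 until the chromosomes are attached, stood at 3181, 3487 and 3661 in the lines of YEJG and at 2635 to 2977 with a median of 2789 in those of YEJH. Here too the lines did not overlap, the parental lines were at 3085 and 2717, and the log2 difference was 0.31 ± 0.05 with an adjusted p of 0.000395.

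*Birc5* (chr11:117740040-117746581, plus strand), whose protein belongs to the chromosomal passenger complex with Aurora B, was the member with the largest difference. It stood at 4927 in YEJG-FP, 2745 in YEJG-M1 and 3043 in YEJG-M2. The lines of YEJH ran from 5036 to 6219 with a median of 5723, above all 3, and the parental lines were at 4704 for YEJG and 5900 for YEJH. The 2 lung lines of YEJG were thus far below every other line, whereas YEJG-FP was close to the lowest line of YEJH origin. The log2 difference was -0.66 ± 0.12 with an adjusted p of 0.000696 in edgeR's test. It was -0.23 in the fat pad lines alone and -0.96 in the lung lines alone.

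*Top2a* was measured at 13647, 15088 and 14621 in the YEJG-derived lines and at 11637 to 13207 with a median of 12177 in the YEJH-derived lines, without overlap (log2 difference 0.23 ± 0.05, adjusted p 0.00265 in edgeR's test). *Kif11*, the kinesin that pushes the spindle poles apart, was at 2464, 3086 and 2846 against 2246 to 2460, so that YEJG-FP was only just above the highest line of YEJH, YEJH-FP4. Its log2 difference was 0.25 ± 0.06 with an adjusted p of 0.00376. The call of *Kif11* held in 26 of 30 alternatives, with differences from 0.05 to 0.35, and was lost in run A libraries alone. *Mki67* was at 6596, 6910 and 7731 against 7710 to 9189 with a median of 8183, and YEJG-M2 overlapped with YEJH-M5. The log2 difference of *Mki67* was -0.22 ± 0.06 with an adjusted p of 0.00629, and -0.14 (adjusted p 0.0915, range over 30 alternatives 0.000486 to 0.111) without technical repeat 2. Its direction was opposite to that of *Top2a*. Cyclin A2 (*Ccna2*) completed the calls, at 0.14 ± 0.04 with an adjusted p of 0.0203.

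Without the library of YEJG-M1 repeat 1 there were 15 calls by origin, and without that of YEJH-M3 repeat 2 there were 17. Counting all 40 genes, 7 (*Birc5*, *Bub1b*, *Ccnd1*, *Cdc20*, *Gins2*, *Kif11* and *Top2a*) had lines of the 2 origins that did not overlap, where 24.8% of all genes tested did not. The parental lines were ordered as the derived lines for *Birc5*, *Bub1b*, *Ccnd1* and *Cdc20*. They were ordered the other way for *Top2a* (10524 in YEJG, 11159 in YEJH), *Kif11* (1902 and 2020) and *Gins2* (338 and 393). Of the 46 other mitosis genes 13 were higher and 5 lower, where 20.9% and 21.4% of all genes were. Among them were the condensin subunit *Ncapd2* at 0.54, the kinetochore subunit *Spc24* at 0.54 and the kinetochore motor *Cenpe* at -0.31. Only 1 fat pad line came from YEJG, and within fat pad lines (1 against 5) *Top2a*, *Kif11*, *Gins2*, *Cdk4* and *Ccna2* no longer passed the threshold, with log2 differences of 0.13, 0.05, 0.13, 0.06 and 0.03. Within lung lines (2 against 5) *Mcm2*, *Mki67*, *E2f1*, *Mcm10*, *Ccnd1* and *Mcm5* no longer passed, with 0.19, -0.17, -0.21, 0.12, -0.28 and 0.13.

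**Figure D3:**
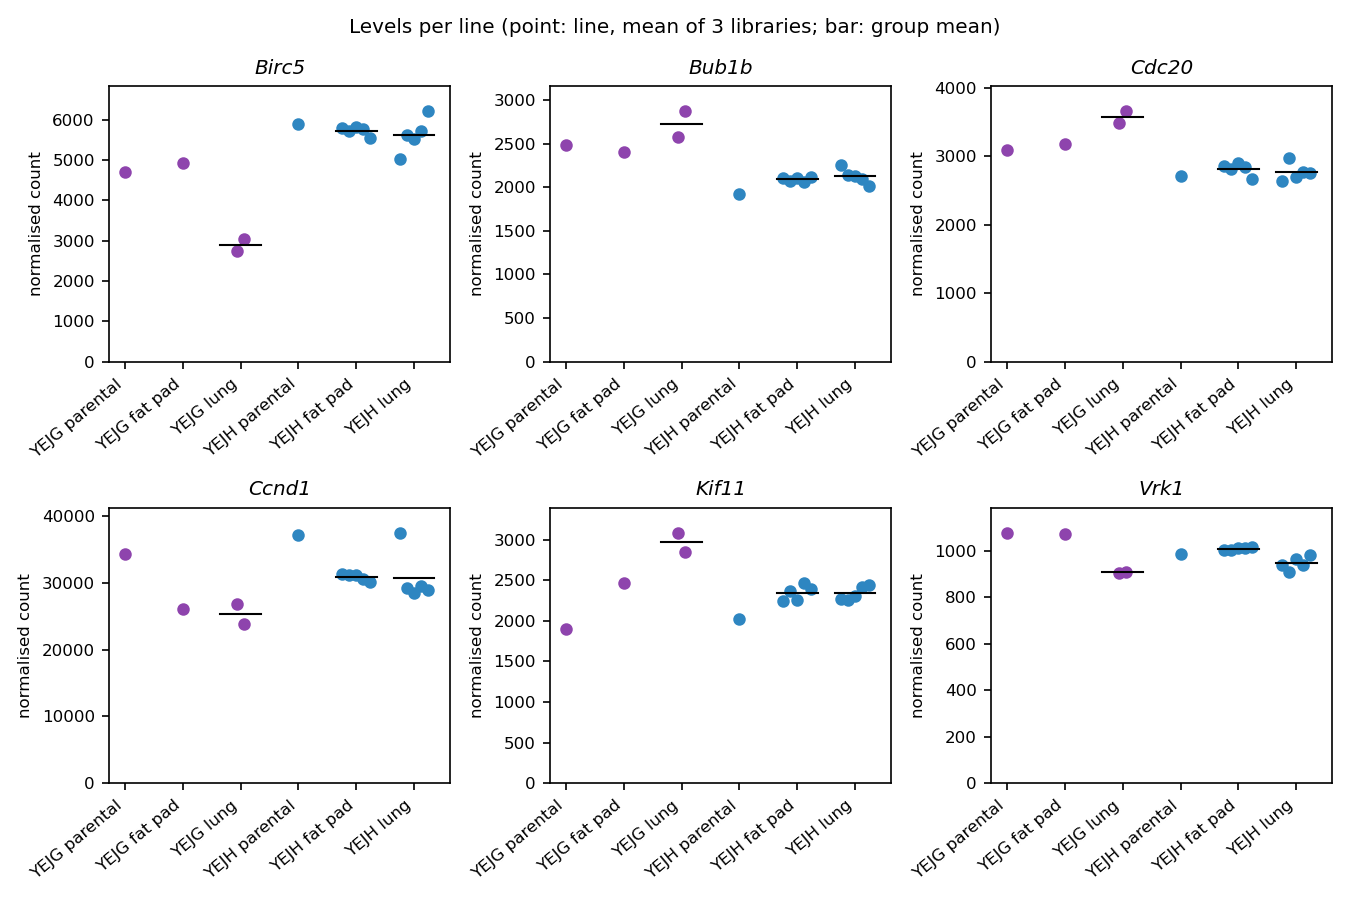
Normalised counts of *Birc5*, *Bub1b*, *Cdc20*, *Ccnd1*, *Kif11* and *Vrk1* by cell line, grouped by origin and site (purple for YEJG, blue for YEJH), with each point the mean of a line's 3 libraries and each bar the mean of a group. The lung lines of YEJG stand at 2745 and 3043 for *Birc5*, against 4704 or more in the other 13 lines.

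Markers of cell identity moved with origin too. All 5 mammary epithelial markers were called lower in the YEJG-derived lines, among them *Epcam* (log2 difference -1.50), *Krt18* (-0.92) and *Krt19* (-2.45), and their summed level was 57532 in YEJG-FP and 38176 to 43435 in the lung lines of YEJG, against 75624 to 101489 in the lines of YEJH. Both tested fibroblast markers were higher, *Col1a1* at 2.61 and *Pdgfra* at 2.13, and the summed fibroblast markers were at 141 in YEJG-FP, 1017 to 1201 in the lung lines of YEJG, and 32.4 to 69.8 in the lines of YEJH. The parental YEJG line, at 86263 and 27.5 for the 2 sums, did not share this. The part of these markers in the results on *Birc5* and the other genes was not tested.

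Promoter sequences are shown for the 4 mitotic genes with the smallest p among those that were higher in YEJG-derived lines, and for *Birc5*. They were taken from RefSeq on GRCm38.p6, each from 250 bases before to 50 bases after a transcription start, and 31 of the 41 genes had such a window, with 37 windows in all. Mitotic genes are known for a CHR element, TTTGAA, bound by the DREAM and B-MYB complexes, and for CCAAT boxes bound by NF-Y. The capitals mark TTTGAA or its reverse complement TTCAAA, and CCAAT or its reverse complement ATTGG.
The window of *Bub1b* lies at chr2:118597961-118598260 on the plus strand, that of *Cdc20* at chr4:118437294-118437593 on the minus strand, that of *Top2a* at chr11:99024140-99024439 on the minus strand, that of *Kif11* at chr19:37376132-37376431 on the plus strand, and that of *Birc5* at chr11:117848987-117849286 on the plus strand.
Bub1b: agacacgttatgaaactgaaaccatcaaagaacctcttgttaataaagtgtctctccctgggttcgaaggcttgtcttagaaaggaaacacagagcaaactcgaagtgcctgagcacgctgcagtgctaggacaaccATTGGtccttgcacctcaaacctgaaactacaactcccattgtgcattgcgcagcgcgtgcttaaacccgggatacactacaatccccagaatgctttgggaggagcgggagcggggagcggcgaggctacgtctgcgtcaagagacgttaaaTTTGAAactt
Cdc20: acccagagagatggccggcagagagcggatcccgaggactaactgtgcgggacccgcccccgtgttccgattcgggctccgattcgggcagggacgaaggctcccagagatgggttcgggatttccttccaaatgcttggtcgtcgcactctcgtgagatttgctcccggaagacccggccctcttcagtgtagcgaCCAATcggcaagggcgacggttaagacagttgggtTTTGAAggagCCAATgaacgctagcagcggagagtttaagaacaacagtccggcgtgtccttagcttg
Top2a: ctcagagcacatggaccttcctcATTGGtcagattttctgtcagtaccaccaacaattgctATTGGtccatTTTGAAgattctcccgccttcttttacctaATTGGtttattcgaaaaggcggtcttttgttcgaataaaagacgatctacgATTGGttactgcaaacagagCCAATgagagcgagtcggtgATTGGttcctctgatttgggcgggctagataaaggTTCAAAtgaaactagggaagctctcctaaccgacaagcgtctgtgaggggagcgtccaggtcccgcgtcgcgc
Kif11: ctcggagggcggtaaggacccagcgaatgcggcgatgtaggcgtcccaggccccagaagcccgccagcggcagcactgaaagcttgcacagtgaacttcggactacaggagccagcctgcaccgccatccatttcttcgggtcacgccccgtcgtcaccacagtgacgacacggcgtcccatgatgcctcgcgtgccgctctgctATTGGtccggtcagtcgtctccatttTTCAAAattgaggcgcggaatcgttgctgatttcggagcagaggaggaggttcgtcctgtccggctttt
Birc5: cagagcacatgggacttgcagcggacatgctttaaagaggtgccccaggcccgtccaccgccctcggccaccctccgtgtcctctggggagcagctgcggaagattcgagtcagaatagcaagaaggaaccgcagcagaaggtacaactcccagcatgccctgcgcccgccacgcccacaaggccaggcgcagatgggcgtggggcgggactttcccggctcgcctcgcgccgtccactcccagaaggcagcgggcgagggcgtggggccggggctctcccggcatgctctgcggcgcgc
The window of *Birc5* held 0 copies of either element. That of *Mki67*, the other mitotic gene called lower in the YEJG-derived lines, held 2 copies of TTTGAA and 3 of CCAAT. The windows of *Ccnb1* and *Bub1* held 0 copies of TTTGAA. The part of these elements in the direction of a difference was not tested. Of the 17 windows of mitotic genes 13 (76.5%) held TTTGAA on either strand, against 17.9% of 32841 promoter windows of all genes. It was in 2 of 11 windows of replication genes (18.2%) and 0 of 6 windows of G1 and S genes. Windows are not separate genes: *Vrk1* has 4 of the 17, most of them with TTTGAA, *Mcm7* has 2 of the 11 and *Ccnd3* 2 of the 6. CCAAT was found in 13 of 17 mitotic windows (76.5%) and 9 of 11 replication windows (81.8%), against 37.4% of all windows, and both elements together in 10 of 17 mitotic windows (58.8%) against 6.95%. The E2F-type letters TTTCCCGC (reverse complement GCGGGAAA) were in 3 of 11 replication windows and 0 of 17 mitotic windows, against 1.07% of all windows, and TTTGGCGC (reverse complement GCGCCAAA) in 4 of 11 and 0 of 17, against 0.515%. No element contains another, though neighbouring matches can share an end letter, and a match here is a run of letters and not a bound site.

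Because YEJG and YEJH lines differed in this way, the difference between lung and fat pad lines was compared between the origins. It differed for 6 of the 40 genes, where 15.5% of all genes differed, so the share is close to that of all genes. Cell identity markers moved with the same contrast: 3 of 5 mammary epithelial markers were lower (*Krt19* -2.29, *Cdh1* -1.60 and *Epcam* -1.05), and of the 2 fibroblast markers tested *Pdgfra* was higher (3.17), in lines with the summed levels given above for origin. Their part in the results on the 6 genes was not tested. *Birc5* had the largest: the libraries of YEJG-FP were at 4851, 5006 and 4925, those of YEJG-M1 at 2788, 2741 and 2705 and those of YEJG-M2 at 2997, 3157 and 2975. In YEJH the fat pad lines (5558 to 5832) lay within the range of the lung lines (5036 to 6219). The difference between the origins was -0.73 ± 0.11 on the log2 scale with an adjusted p of 0.00137 in edgeR's test, and it passed in all 18 alternatives, at -0.80 to -0.65. *Cdc45*, the helicase cofactor, was at 928 in YEJG-FP and at 1152 and 1123 in the lung lines of YEJG, while YEJH-derived lines ran from 932 to 1005, and the difference between the origins was 0.31 ± 0.07 with an adjusted p of 0.00984.

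*Gins1*, another subunit of GINS, was at 419 in YEJG-FP and 332 and 341 in its lung lines, with 323 to 352 in the lines of YEJH (difference -0.30 ± 0.08, adjusted p 0.0234 in edgeR's test). YEJG-FP alone was high here, since parental YEJG was at 328, whereas for *Cdc45* parental YEJG, at 1160, was level with the lung lines of YEJG. *Kif11* differed by 0.31 ± 0.08 with an adjusted p of 0.0247, at 0.12 in run A libraries and 0.41 in run B libraries. *Cdk4* (0.29 ± 0.09, adjusted p 0.0459) and cyclin B2, *Ccnb2* (0.28 ± 0.09, adjusted p 0.0465), each lost the call in 13 of 18 alternatives. For *Ccnb2* the levels were 1369 in YEJG-FP and 1479 and 1657 in the lung lines, against 1392 to 1587 in YEJH-derived lines. YEJG has a single fat pad line, which leaves its fat pad side without replicates, and without YEJG-M1 there were 3 calls.

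Derived and parental lines were compared with origin as a covariate. Of the 40 genes 3 differed, where 7.77% of all genes did: 2 were higher in the derived lines, where 3.55% of all genes were, and 1 was lower, where 4.23% were. *Bub1*, a spindle checkpoint kinase, stood at 990 in YEJG and 1006 in YEJH, below each of the 13 derived lines (1162 to 1371, median 1234). The log2 difference was 0.28 ± 0.06 with an adjusted p of 0.0145 in edgeR's test. *Kif11* stood at 1902 in YEJG and 2020 in YEJH, again below every derived line (2246 to 3086, median 2395), with a difference of 0.32 ± 0.09 and an adjusted p of 0.0384. *Ccnd1* stood at 34368 and 37152 in the parental lines and at 23838 to 37530 with a median of 29489 in the derived lines. Only YEJH-M1 of the derived lines was as high as the parental lines, and the difference was -0.34 ± 0.09 with an adjusted p of 0.0259. The call of *Ccnd1* was lost in 7 of 34 alternatives, and its difference ranged from -0.43 to -0.27 over them. Each origin has a single parental line, so the spread in this comparison comes mainly from the derived lines.

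Some markers of cell identity were called by passage too. Of 4 fibroblast markers *Pdgfrb* and *Col3a1* were called higher in the derived lines. The summed fibroblast level was 27.5 in parental YEJG, 141 in YEJG-FP and 1017 to 1201 in the lung lines of YEJG. In YEJH it was 40.9 in the parental line and 32.4 to 69.8 in the derived lines. Of 5 mammary epithelial markers *Epcam* was called lower (log2 difference -0.98). The summed epithelial level was 86263 in parental YEJG, 57532 in YEJG-FP and 38176 to 43435 in the lung lines of YEJG. In YEJH it was 79097 in the parental line and 75624 to 101489 in the derived lines. The shift of both sums away from the parental line was thus one of the YEJG lines. The part of these markers in the results on *Bub1*, *Kif11* and *Ccnd1* was not tested.

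The 3 libraries of each parental line differed widely in these genes. *Kif11* was at 1408, 1862 and 2437 in repeats 1, 2 and 3 of YEJG and at 1330, 1962 and 2768 in those of YEJH. *Bub1* was at 765, 1031 and 1176 in YEJG and at 693, 1016 and 1310 in YEJH. In both genes and both lines, repeat 1 was lowest. Repeat 3 was inside the range of the derived lines' means, but those means are over all 3 repeats. Among the 15 repeat 3 libraries alone, *Bub1* ran from 1176 to 1579 with a median of 1308, and parental YEJG was the lowest. For *Kif11* they ran from 2356 to 3720 with a median of 2536. Without technical repeat 1 the differences were 0.19 for *Bub1* (adjusted p 0.151 in edgeR's test) and 0.23 for *Kif11* (adjusted p 0.217), without repeat 3 they were 0.44 and 0.52, and without the YEJG line none of the 40 genes was called. Over 34 alternatives the adjusted p ran from 0.00014 to 0.502 for *Bub1* and from 0.00083 to 0.611 for *Kif11*. Of the 34 other replication genes 3 were higher in derived lines (*Rfc1* 0.26, *Pola1* 0.27 and *Orc2* 0.23), where 3.55% of all genes were. Of the 46 other mitosis genes 10 were higher (with *Ttk* at 0.33, *Cenpe* at 0.29 and *Ncapg* at 0.28) and none was lower. These counts were not tested against the share of all genes.

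That pattern led to a test of the repeat number itself over all 15 lines, added after these values had been seen, with line and run as covariates. Of the 40 genes 21 differed between repeat numbers, where 39.4% of all genes did, and the excess over that share was not tested. The p-values are of edgeR's test over all 3 repeat numbers, while the log2 differences and their SE are of repeat 3 against repeat 1. By that difference, 5 of these were higher and 16 lower in repeat 3. The 5 were *Kif11* (0.42 ± 0.06, adjusted p 5.90e-06 in edgeR's test), *Top2a* (0.26 ± 0.04, 6.15e-06), *Ccne2*, which encodes cyclin E2 (0.42 ± 0.07, 5.72e-05), *Mki67* (0.35 ± 0.06, 6.89e-05) and *Bub1* (0.30 ± 0.05, 0.000136). The 16 were *Mcm3* (-0.16, 2.12e-05), *E2f1* (-0.22, 2.74e-05), *Cdk4* (-0.16), *Cdt1*, a licensing factor (-0.17), *Mcm5* (-0.16), the ubiquitin-conjugating enzyme *Ube2c* (-0.15), *Mcm7* (-0.14), *Mcm6* (-0.09), *Mcm2* (-0.12), the licensing factor *Cdc6* (-0.10), the cyclin genes *Ccne1* (-0.20), *Ccnd3* (-0.11), *Ccnd1* (-0.06) and *Ccnb1* (-0.08), *Cdc20* (-0.14) and *Plk1* (-0.11).

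The median over the 15 lines was 2122, 2494 and 2536 for *Kif11* in repeats 1, 2 and 3, 11568, 12999 and 12960 for *Top2a*, and 7008, 8094 and 8553 for *Mki67*. For *Mcm3* it was 4800, 4504 and 4248, and for *E2f1* 503, 446 and 425. Repeat 1 was the lowest of a line's 3 libraries in 14 of 15 lines for *Top2a*, 13 for *Mki67*, 13 for *Kif11* and 12 for *Bub1*, so that 4 of the 40 genes were lowest there in at least 12 lines, where 5.46% of all genes were. It was the highest in at least 12 lines for *Mcm3* (13), *Mcm5*, *Cdk4* and *Ube2c* (12 each), again 4 of the 40 genes, where 3.46% of all genes were. Mitotic genes were called in both directions, since *Cdc20* and *Plk1*, like *Ube2c* and *Ccnb1*, were lower in repeat 3. The repeat 3 to repeat 1 difference also followed exon length, with medians of -0.05, -0.04, -0.02 and 0.03 from the shortest to the longest of 4 equal groups of all genes, and over the 40 genes it correlated with length at r = 0.356 (r = 0.156 over 13680 genes). Genes are not independent replicates, and the part of length in the pattern was not tested. Of the 46 other mitosis genes 31 were called, 21 of them higher in repeat 3, where 39.4% of all genes were called in either direction. Every line holds 1 library of each number, but a sum per line weighs its libraries by their depth, which differs between repeats.

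**Figure D4:**
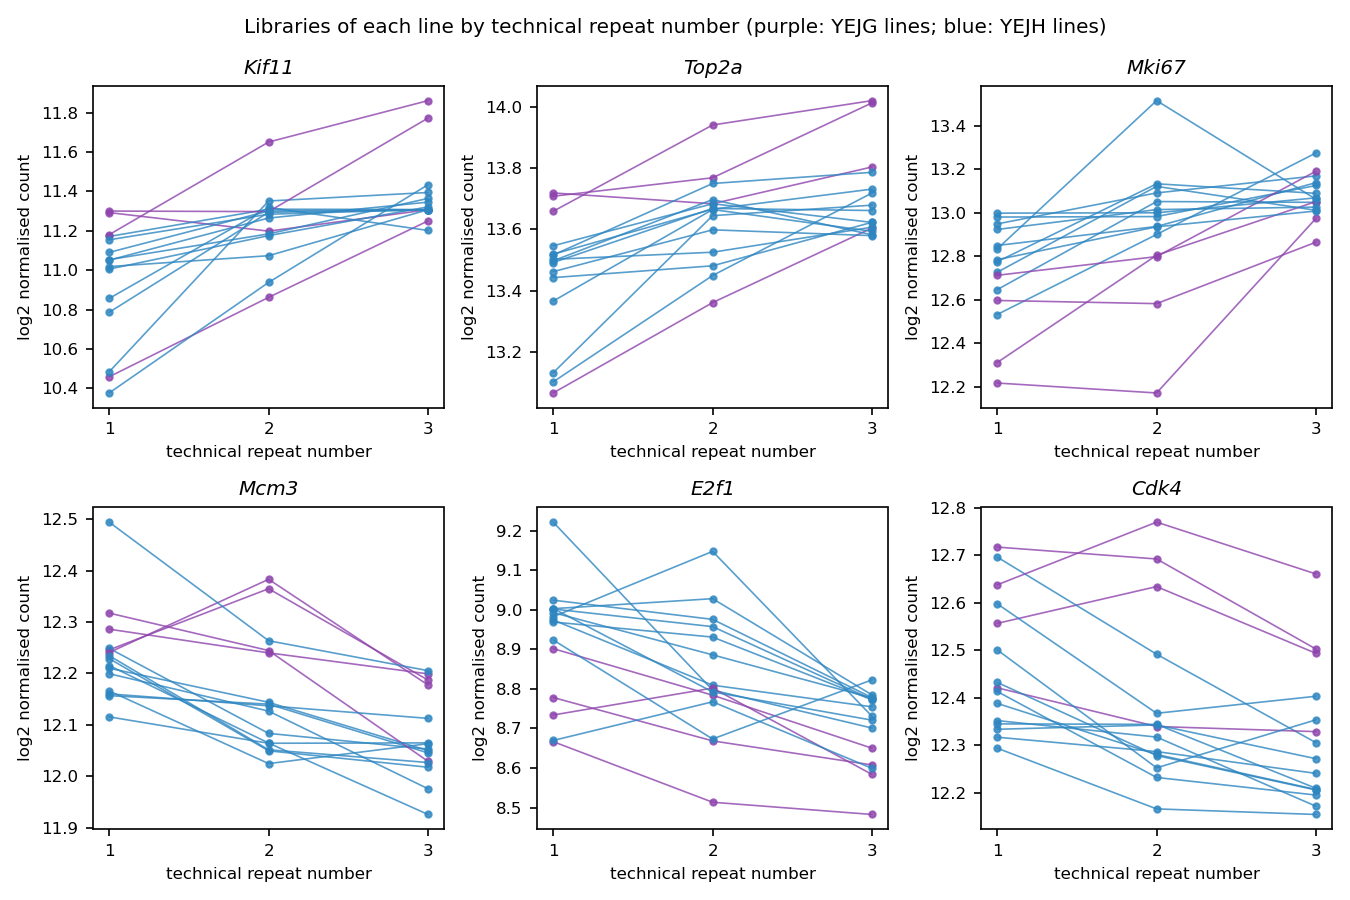
Log2 normalised counts of *Kif11*, *Top2a*, *Mki67*, *Mcm3*, *E2f1* and *Cdk4* in technical repeats 1, 2 and 3, with a line joining the 3 libraries of each cell line (purple for YEJG, blue for YEJH). In most lines the first 3 genes are lowest in repeat 1 (medians 2122, 11568 and 7008 on the linear scale) and the last 3 are highest there (4800, 503 and 5483).

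The run prefix separated the libraries for a few genes sharply. Of the 40 genes 4 differed between runs, where 16.2% of all genes did. *Ccnb1*, the cyclin of mitotic entry, ranged from 3059 to 3786 in run A libraries and from 2076 to 2744 in run B libraries, with no overlap. Its difference, run B minus run A, was -0.53 ± 0.02 with an adjusted p of 1.11e-20 in edgeR's test. *Pcna* ranged from 4253 to 5061 in run A and from 2927 to 4000 in run B, also without overlap, with a difference of -0.43 ± 0.02 and an adjusted p of 1.20e-18. *Mcm7* (-0.15 ± 0.03, adjusted p 0.000158) and *Ccnd1* (0.08 ± 0.02, adjusted p 0.00286) overlapped between the runs.

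The pseudogene *Ccnb1-ps* held 50 to 87 reads in each run A library and 0 to 10 in each run B library, whereas *Pcna-ps2* held 4 to 18 and 3 to 18. The tally of reads set aside for low mapping quality was 822828 or more in run A and 0 in run B, so the reads of the runs were not counted in the same way. The part of this in the levels of *Ccnb1* and *Pcna* was not tested. Lines hold 1 or 2 run A libraries, and a line's mean for these 2 genes depends on which. Neither gene was called by site, origin or passage.

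**Figure D5:**
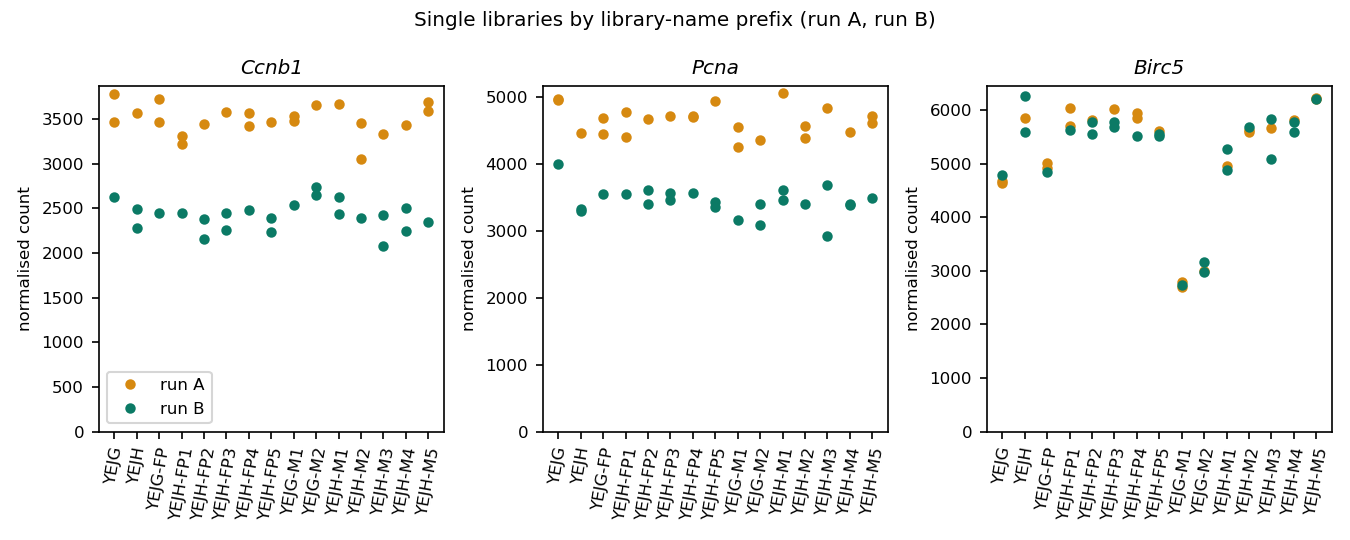
Normalised counts of *Ccnb1*, *Pcna* and *Birc5* in each library by cell line, with run A in orange and run B in green. For *Ccnb1* and *Pcna* every run A library (3059 or more and 4253 or more) is above every run B library, while *Birc5* shows the low lung lines of YEJG in both runs.

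The 40 genes varied little between lines. The median standard deviation between the 15 lines, adjusted for run, was 0.104 on the log2 scale. That between technical repeats of a line, without that adjustment, was 0.103. The same 2 figures were 0.201 and 0.168 over all 13824 genes kept. They were 0.139 and 0.113 over the 7410 genes at least as abundant as the least abundant of the 40. A line's level rests on 3 libraries, while the spread between repeats is one of single libraries, so the 2 figures are not in like units. The highest line was more than 2-fold above the lowest for *Birc5* (2.27-fold) and *Ccne2* (2.12-fold) only, or 5% of the genes, against 15.8% of the 7410 genes. *Ccne2* also had a large spread between technical repeats, with a standard deviation of 0.308. In the YEJH lines the 5 lung lines varied more than the 5 fat pad lines for 35 of the 40 genes (87.5%), with median standard deviations of 0.084 and 0.031, and this was so for 85% of the 7410 genes. The lung figures include the library of YEJH-M3 repeat 2, which stood apart in its reads on genes. The spread without that library was not computed.

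Among the 5 lung lines of YEJH, YEJH-M1 had the highest level of 19 of the 40 genes and of 9 of the 13 replication genes. *Mcm3* was at 5136 in YEJH-M1 and at 4334 to 4503 in the other 4, and *Ccnd1* at 37530 against 28453 to 29489. *Ccne2* was lowest there of the 15 lines, at 387. The library of YEJH-M3 repeat 2, which stood apart in its reads on genes, held *Cdk6*, the other kinase partner of the D-type cyclins, at 4482 where repeats 1 and 3 held 1996 and 2234. It held *Mki67* at 11715 against 7300 and 8553, and *Foxm1*, the transcription factor of mitotic genes, at 2395 against 1575 and 1465. Without that library the mean of YEJH-M3 for *Cdk6* was 2115 in place of 2904, near the other lung lines of YEJH (2155 to 2421).

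Correlations between genes over the 15 lines, adjusted for run, describe which levels moved together. The lines share 2 parental origins, and their libraries share runs, so the points are not independent. Over 780 pairs of genes the median r was 0.16, with 491 pairs above 0. Pairs of replication genes had a median r of 0.38 (67 of 78 above 0) and pairs of mitotic genes a median of 0.07. The closest partners were *Mcm3* and *Mcm5* (r = 0.92), *Mcm2* and *Bub1b* (r = 0.92) and *Top2a* and *Kif11* (r = 0.92). The standard deviation between technical repeats was 0.279 for *Kif11* and 0.169 for *Top2a*, against 0.178 and 0.141 between lines. Both genes also differed between repeat numbers, and the part of the repeats in that r was not tested. *Mki67* was nearest to *E2f1* (r = 0.52) and had r = -0.48 with *Mcm2*, which was 0.05 over the 10 YEJH-derived lines alone, and *Birc5* had r = -0.77 with *Mcm2*.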

How the data were processed

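RNA of 15 *PyMT*+ cell lines was measured in 3 technical repeats each, in 45 libraries. Read counts per gene were deposited by the authors without normalisation, for 54838 genes with Ensembl mouse identifiers. The submitters' processing notes name FastQC, HISAT2, SAMtools 1.2 and HTSeq, without their roles. The notes name the build GRCh38, which is human, although the identifiers are of mouse; 50764 (92.6%) of them matched the GRCm39 annotation used for names and positions. The labels and the paper name the TruSeq RNA kit for these lines, which does not keep the strand, and the labels name poly(A) RNA. All columns were placed, with 0 left over, and the tallies of unassigned reads stayed out of library sizes.

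Counts were summed per line, since the repeats are technical and p-values then measure the spread between lines. Tests used edgeR 4.0.16 (R 4.3.3): TMM factors, filterByExpr, the quasi-likelihood test and Benjamini-Hochberg adjustment over all genes tested, at 0.05. Site was tested without covariate, origin with site and passage with origin as covariate. Runs and repeat numbers were tested over libraries, with line as a covariate, and for repeat numbers also run. The p-values for repeat numbers are of an F test over all 3, and the standard errors of repeat 3 against repeat 1. Standard errors were the size of the log2 change over the square root of F. Normalised counts are counts over the TMM-scaled library size, over 13824 genes, and log2 levels had a pseudocount of 0.5. Each line has 3 libraries of at least 9723860 reads on genes. DESeq2 1.42.0 and voom in limma 3.58.1 served as alternatives. The scripts were tested on simulated data.

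All members called in a comparison are named, or else the 3 with the smallest p. Per-line values are given for at most 12 members of a comparison, and up to 3 called genes with the smallest p exemplify each other list. The members and lists were chosen with earlier results of these data known. Numbers recur in the names of the YEJH lines of both sites. Deviations of same-numbered lines correlated at -0.04 to 0.19. The numbers were not taken as pairs, although these values cannot decide whether same-numbered lines share a mouse.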

Additional observations from a re-analysis of the deposited data

Results flagged for a closer look

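The levels of the 40 tested genes were checked for a line far from the rest within the 5 fat pad lines and within the 5 lung lines of YEJH, 80 groups in all, and 3 groups held one, where chance alone flags about 1 in 20 groups. In the fat pad lines *Aurka*, the kinase of the spindle poles, stood at 1949 normalised counts in YEJH-FP4, against 1901 to 1913 in the other 4. In the lung lines, YEJH-M1 was far above the rest for *Mcm3*, at 5136 against 4334 to 4503, and for *Ccnd1*, at 37530 against 28453 to 29489.

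The difference between lung and fat pad lines was not the same in the lines of YEJG and YEJH for 6 genes, by edgeR's test of the difference itself. On the log2 scale, the YEJG contrast minus the YEJH contrast was -0.73 for *Birc5* (adjusted p 0.00137), 0.31 for *Cdc45* (0.00984), -0.30 for *Gins1* (0.0234), 0.31 for *Kif11* (0.0247), 0.29 for *Cdk4* (0.0459) and 0.28 for *Ccnb2* (0.0465). The share of 6 in 40 genes is close to the 15.5% of all genes called. YEJG has 1 fat pad line, so a difference peculiar to that line and a difference of the origin cannot be told apart.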

How the results depend on the processing

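Of the fold changes recomputed, those of the genes named by site, origin, passage, site by origin and run, none changed direction. By site, edgeR called 0 genes, against 22 by DESeq2 (with 1 of the 40 genes), 77 with libraries kept apart in limma's voom, 74 with run as a covariate there, 1 in run A libraries, 3 with origin as a covariate, 7 in YEJH-derived lines alone, and 0 to 1 leaving out a line or repeat. By origin no alternative moved a count by over 1.5 times (4700 to 6923 genes and 10 to 22 of the 40). By passage, 1272 genes and 3 of the 40 were called. DESeq2 called 2024 and 5, voom 2481 genes, voom with run 2480 genes, run B libraries alone 685 and 1, no origin covariate 202 and 1, YEJH lines alone 566 and 0, YEJG lines alone 0 and 0, fat pad lines as the only derived lines 1948 and 7, lung lines 163 and 0, and leaving out a line or repeat 141 to 2281 and 0 to 7. The lowest came without parental YEJG, the highest without parental YEJH (2281 and 7). For the contrast between origins, 6 of the 40 became 2 without a filter, 3 in run A, 1 in run B, and 3 to 7 leaving out a line. Between runs, 4 of the 40 became 7 without a filter. The causes were not tested.

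With the shared line number as a replicate block, site gave 0 genes, and *Vrk1* was at -0.13 (adjusted p 0.762 in edgeR, 0.00872 to 0.999 over 30 alternatives). Lines of the same number correlated at 0.06 on average and others at -0.01. These few weak correlations cannot decide whether lines of the same number came from the same mouse. With technical repeat number as a replicate block in voom, site gave 68 genes, and passage 2546 genes and 6 of the 40. Passage rests on 1 parental line per origin, and the contrast between origins on 1 fat pad line of YEJG, where leaving it out could not be fitted.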
